A study of Homo sapiens with 4 samples.

Results

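Chemokine genes of the CC family and of other families that act on mononuclear cells were followed in MDA-MB-231, a human cell line long used as a model of invasive breast cancer. They are CCL2, CCL5, CCL7, CCL20, CCL26, CX3CL1, CXCL10, CXCL11, CXCL12 and CXCL16, and they were taken by gene symbol, which gave 15 of the 47323 probes and 10 of the 31426 symbols of the array. The shT7#1 cells carried a short hairpin RNA against TRPM7 (n = 2 arrays), and the shCntrl cells carried a scrambled hairpin (n = 2 arrays). TRPM7 encodes a cation channel fused to a kinase. All cells were transduced and grown in the same serum-containing medium, no cells of another type are named, and a single hairpin stands for the loss of TRPM7. Total RNA was hybridised to bead arrays (Illumina HumanHT-12 v4), which report the brightness of beads carrying a gene's probe. Since no label says whether the arrays of a group stem from separate cultures, the p-values reflect only the spread between these arrays, which may be technical.

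Chemokines are small secreted proteins that guide white blood cells along a gradient, and they are sorted into CC, CXC and CX3C families by the spacing of conserved cysteines. The CC ligands here and the CXC ligands without the neutrophil-binding motif act mostly on monocytes, T cells, dendritic cells and eosinophils, through receptors that those cells carry. CX3CL1 and CXCL16 are made as membrane proteins and can be cut off the surface by ADAM proteases. Many chemokine promoters are driven by NF-kB, and those of CXCL10 and CXCL11 also by interferon-activated factors.

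Between 19492 and 20261 probes per array were above background, which here means a detection p below 0.05 in the deposited table. Log2 signals of the 14731 tested genes correlated at 0.993 between the shT7#1 arrays and 0.994 between the shCntrl arrays, and at 0.982 to 0.984 across the groups. The single TRPM7 probe was not above background on any array, with detection p-values of 0.529 and 0.331 in shT7#1 and 0.275 and 0.443 in shCntrl, so the arrays gave no check of the knockdown. All 8 markers of the line that were chosen for this check, among them VIM and CD44, were above background on all 4 arrays, and ESR1, PGR and CDH1 were not above background on any. EPCAM and GATA3, which were chosen as markers of other breast cancer classes, were above background on all 4 arrays. Leukocyte markers were read because leukocytes make many of these chemokines. PTPRC, the pan-leukocyte phosphatase, was not above background at any of its 4 probes, and 7 of the 12 leukocyte markers were above background on no array. The leukocyte markers CD14, CD68 and CSF1R were above background on all 4 arrays, and MS4A1 and LYZ on 1 array each. The signal of the 21 leukocyte marker probes summed to 5019 and 5428 units in shT7#1, against 5346 and 5788 units in shCntrl. Of the 3 leukocyte markers tested, CD14 and CD68 were not called, and the growth factor receptor gene CSF1R fell by 1.52 ± 0.14 log2 units (SE, limma adjusted p 0.00734). Over all tested genes, 3.55% were called lower and 6.5% in either direction.

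Of the 8 tested chemokines, 4 were higher after the TRPM7 hairpin and none was called lower. CCL5, CX3CL1 and CXCL10 rose in shT7#1, by 1.04 to 2.00 log2 units. CCL20 rose by at least 3.12-fold with the background correction used here, with shCntrl at background. CCL2, CCL26, CXCL11 and CXCL16 were not called, and CCL7 and CXCL12 were not above background on any array and were not tested. Thus 4 of the 10 genes were called higher, 0 lower, 4 were tested without a call and 2 were not tested. Over all 14731 genes, limma called 2.95% higher, 3.55% lower and 6.5% in either direction at an adjusted p under 0.05. None of the 8 tested chemokines was lower at an unadjusted p under 0.05 either, against 1987 of all 14731 genes. CCL20 passed the detection filter only through the shT7#1 arrays, and without it 3 of the 7 other tested chemokines were called higher. Groups that did not overlap, with shT7#1 higher, were found for the same 4 chemokines and for 27.5% of all tested genes, and with shT7#1 lower for 0 chemokines and 28.2% of all tested genes. A change in bulk RNA does not tell more RNA per cell from more cells that express the gene.

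**Figure D1:**
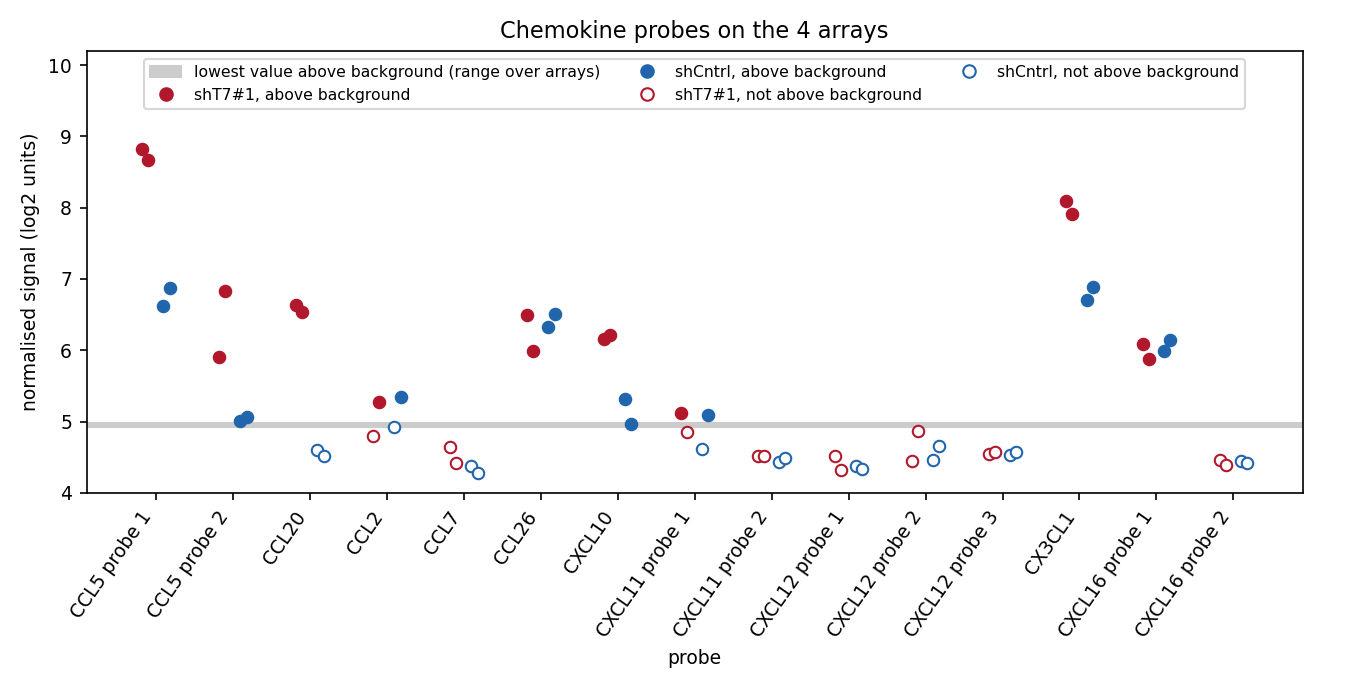
Normalised log2 signal of the 15 chemokine probes on each array. shT7#1 points stand left of shCntrl points, filled points were above background and open points were not, and the grey band is the range over arrays of the lowest value above background (4.92 to 4.98). CCL5, CCL20, CXCL10 and CX3CL1 show shT7#1 points clear of the shCntrl points, and all points of CCL7 and CXCL12 are open.

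CCL5, also known as RANTES, draws T cells and monocytes, in part through CCR1 and CCR3. Its brighter probe gave signals of 516.3 and 530.7 units on the shT7#1 arrays, against 191.8 and 221.8 units on the shCntrl arrays. All 4 values were above background and the groups lay far apart. On the normalised log2 scale the level was 8.74 ± 0.11 in shT7#1 and 6.75 ± 0.18 in shCntrl (SD, n = 2 each). CCL5 thus rose 3.99-fold (2.00 ± 0.14 log2 units, SE, limma adjusted p 0.00389). A dimmer CCL5 probe gave 149.4 and 219.5 units in shT7#1, against 127.0 and 129.9 units in shCntrl. This probe was also above background on all 4 arrays, its groups did not overlap, and its shT7#1 arrays were further apart. Its fitted log2 difference was 1.33 ± 0.30 (SE), with a 95% interval of 0.60 to 2.07. With both probes averaged, the CCL5 change was 1.67 log2 units and remained called.

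CCL20, also known as MIP-3 alpha, attracts CCR6-bearing dendritic and T cells. The CCL20 signal was 185.0 and 197.1 units on the shT7#1 arrays, against 114.6 and 113.1 units on the shCntrl arrays. Both shT7#1 arrays were above background with a detection p of 0.0013, while the shCntrl arrays had detection p-values of 0.275 and 0.449. Because shCntrl gave only a bound, CCL20 was at least 3.12-fold higher in shT7#1 with the background correction used here. The limma adjusted p of 0.00219 belongs to the fitted log2 difference of 2.03, not to the bound. That bound sets the mean of the shT7#1 arrays against the lowest normalised value above background on each shCntrl array. The measured log2 means were 6.58 ± 0.07 in shT7#1 and 4.56 ± 0.06 in shCntrl (SD, n = 2 each). In the authors' deposited table CCL20 is listed at 13.35-fold, the highest of the chemokines here. The size depended on how background was treated, since the log2 difference was 0.75 without background correction and 3.74 on the authors' processed values. The direction was the same in all 13 alternatives that gave a value.

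CX3CL1, also called fractalkine, is a membrane-anchored chemokine with a mucin stalk that holds monocytes and lymphocytes bearing CX3CR1. Its signal was 347.4 and 354.8 units in shT7#1, against 197.2 and 223.1 units in shCntrl, with all 4 arrays above background. The lower shT7#1 array was well above the higher shCntrl array. CX3CL1 rose 2.32-fold (1.21 ± 0.14 log2 units, SE, limma adjusted p 0.0112). Its log2 levels were 8.01 ± 0.13 in shT7#1 and 6.79 ± 0.13 in shCntrl (SD, n = 2 each). With any 1 of the 4 arrays left out, the log2 change of CX3CL1 was 1.12 to 1.31 and the call was lost, at limma adjusted p-values of 0.0560 to 0.0815.

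CXCL10, also called IP-10, and CXCL11 draw activated T cells and natural killer cells through CXCR3, and they lie next to each other on chromosome 4. The CXCL10 signal was 159.6 and 178.4 units on the shT7#1 arrays, against 135.3 and 127.4 units on the shCntrl arrays. All 4 arrays were above background, although the dimmer shCntrl array only narrowly so, with a detection p of 0.0442. CXCL10 rose 2.06-fold (1.04 ± 0.15 log2 units, SE, limma adjusted p 0.0230). The log2 levels of CXCL10 were 6.19 ± 0.04 in shT7#1 and 5.15 ± 0.25 in shCntrl (SD, n = 2 each). Leaving out any 1 array ended the call, with changes of 0.87 to 1.22 log2 units and limma adjusted p-values of 0.0557 to 0.1155. The change was 0.36 log2 units without background correction and 1.77 on the authors' processed values.

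CXCL11, also called I-TAC, did not follow its neighbour past the threshold. Its brighter probe gave 127.4 and 128.8 units in shT7#1, against 114.9 and 130.7 units in shCntrl. The groups overlapped, and only 1 array of each group was above background. The log2 difference was 0.14 ± 0.20 (SE), with a 95% interval of -0.35 to 0.63 and a limma adjusted p of 0.713. The second CXCL11 probe was not above background on any array. Whether the CXCL10 and CXCL11 changes differ from each other was not tested.

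**Figure D2:**
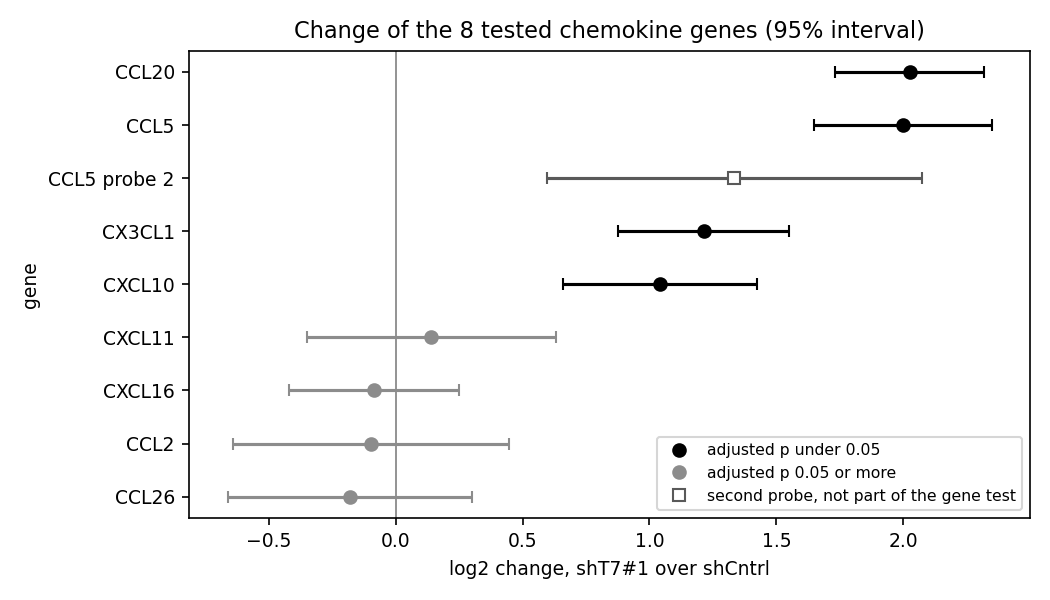
Log2 change of the 8 tested chemokine genes, shT7#1 over shCntrl, with 95% intervals from the limma fit (2 arrays per group). Black points passed an adjusted p of 0.05, grey points did not, and the open square is the dimmer CCL5 probe. The intervals of CCL5, CCL20, CX3CL1 and CXCL10 lie above 0, and those of CXCL11, CXCL16, CCL2 and CCL26 include 0. The CCL20 value is the fitted one, and its shCntrl arrays were not above background.

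Promoter windows were taken from RefSeq (GRCh38.p14), 250 bases before to 50 after the start of each gene, and 6 of the 10 genes had an entry (CCL7, CCL20, CCL26, CXCL10, CXCL11 and CXCL12). The windows of CCL20 and CXCL10 are shown because both genes rose, and that of CXCL11 because it adjoins CXCL10 and was not called. Capitals mark matches to a kappa B-like motif, GGGANNNNCC or its reverse complement GGNNNNTCCC, and to the core of the interferon-stimulated response element, GAAANNGAAA or TTTCNNTTTC, where N is any base.
CCL20, chr2:227813592-227813891, plus strand: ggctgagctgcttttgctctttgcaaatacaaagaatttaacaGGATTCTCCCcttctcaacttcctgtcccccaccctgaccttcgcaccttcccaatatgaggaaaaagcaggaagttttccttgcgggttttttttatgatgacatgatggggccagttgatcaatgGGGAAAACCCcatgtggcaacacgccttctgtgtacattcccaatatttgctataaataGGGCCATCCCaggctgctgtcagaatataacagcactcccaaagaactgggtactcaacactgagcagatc
CXCL10, chr4:76023448-76023747, minus strand: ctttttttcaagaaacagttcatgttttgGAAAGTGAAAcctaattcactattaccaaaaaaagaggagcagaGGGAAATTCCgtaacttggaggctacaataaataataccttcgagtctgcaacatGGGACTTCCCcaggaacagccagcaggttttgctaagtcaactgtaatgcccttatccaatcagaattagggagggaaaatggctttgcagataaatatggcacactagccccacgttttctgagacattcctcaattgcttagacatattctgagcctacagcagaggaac
CXCL11, chr4:76036021-76036320, minus strand: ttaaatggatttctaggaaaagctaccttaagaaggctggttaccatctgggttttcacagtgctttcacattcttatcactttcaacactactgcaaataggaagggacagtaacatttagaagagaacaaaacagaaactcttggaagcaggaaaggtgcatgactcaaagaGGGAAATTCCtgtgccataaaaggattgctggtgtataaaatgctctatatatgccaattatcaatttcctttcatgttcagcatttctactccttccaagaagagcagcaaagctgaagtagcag
The CCL20 window held 3 kappa B-like matches, starting at -207, -80 and -21 from the start site. CXCL10 held 2 of them, at -177 and -122, of which the second reads as a match on both strands, and an interferon response core at -221. CXCL11 held 1 kappa B-like match at -76, with the same 10 letters as the CXCL10 match at -177, and no match to the interferon core. CCL7, CCL26 and CXCL12 had a match to neither motif. Of 35116 windows of the same length, 25.6% held the kappa B-like letters and 3.57% the interferon core on either strand. A match is a description of letters, not a bound site, and a window without one holds only the absence of these letters. Of the tested genes with a window, CCL20 and CXCL10 were called and held kappa B-like letters, while of the uncalled genes CXCL11 held them and CCL26 did not.

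**Figure D3:**
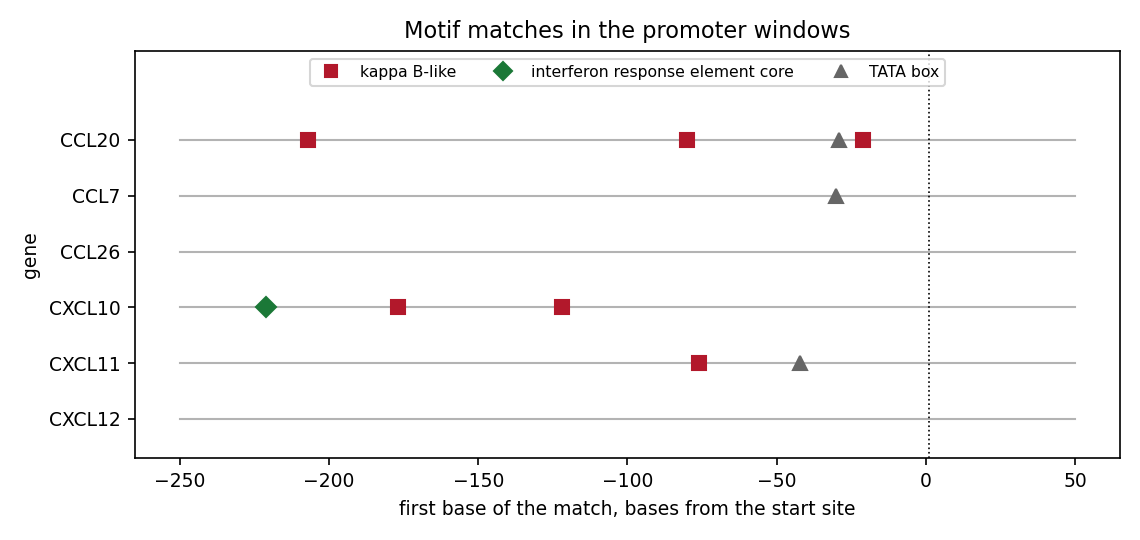
Position of motif matches in the 6 promoter windows, in bases from the start site (dotted line). Squares are kappa B-like matches, diamonds the interferon response core and triangles a TATA box (TATAAA or TTTATA, held by 11.5% of windows), searched on both strands. CCL20 shows 3 squares, CXCL10 2 squares and the only diamond among these 6 windows, and CXCL11 1 square.

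CCL2 and CCL7, also known as MCP-1 and MCP-3, attract monocytes through CCR2, and their genes adjoin each other in the CC cluster of chromosome 17. The CCL2 signal was 119.4 and 140.2 units in shT7#1, against 124.7 and 138.4 units in shCntrl. The array numbered 2 in each group was above background and the array numbered 1 was not, so the groups overlapped fully. The log2 difference of CCL2 was -0.10 ± 0.22 (SE), with a 95% interval of -0.64 to 0.44 and a limma adjusted p of 0.830. CCL7 gave 114.5 and 112.6 units in shT7#1, against 104.1 and 97.9 units in shCntrl, and none of its detection p-values was under 0.210. With both groups at background, no fold is given for CCL7. The genes that follow in the cluster, CCL11 and CCL8, were above background on 0 arrays and 1 array.

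CCL26, or eotaxin-3, recruits eosinophils through CCR3 and is known as a target of interleukin 4 and interleukin 13. Its signal was 176.6 and 166.5 units in shT7#1, against 174.5 and 193.1 units in shCntrl, all above background. A single shT7#1 array lay between the shCntrl arrays on the linear scale, and the groups overlapped. The log2 difference was -0.18 ± 0.19 (SE), with a 95% interval of -0.66 to 0.30 and a limma adjusted p of 0.617. IL4 and IL13 were not above background on any array.

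CXCL16, the transmembrane ligand of CXCR6, gave 156.6 and 162.2 units in shT7#1, against 158.1 and 171.9 units in shCntrl at its brighter probe. All 4 values were above background and the groups overlapped. Its log2 difference was -0.08 ± 0.14 (SE), with a 95% interval of -0.42 to 0.25, and the limma adjusted p was 0.751. The second CXCL16 probe was not above background on any array. CXCL12, the CXCR4 ligand made mainly by stromal cells, was not above background at any of its 3 probes, whose signals lay between 106.8 and 128.9 units in shT7#1 and between 103.4 and 118.5 units in shCntrl. The lowest CXCL12 detection p was 0.0636, and with both groups at background no fold is given from these signals.

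**Figure D4:**
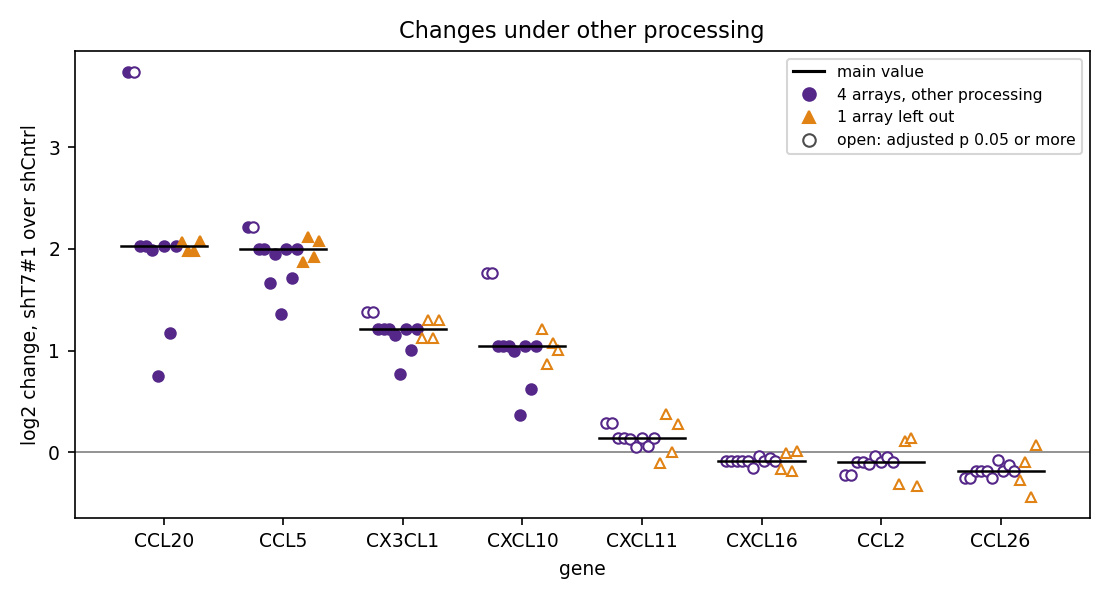
Log2 change of the 8 tested genes (vertical axis, shT7#1 over shCntrl) under other processing of all 4 arrays (circles) and with 1 array left out (triangles), with the main value as a bar. Filled symbols passed an adjusted p of 0.05. CCL5 and CCL20 stay filled in all but 1 alternative each, the triangles of CX3CL1 and CXCL10 are open, and CCL2, CCL26, CXCL11 and CXCL16 are open throughout.

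The authors' processed values were also read per array. In that deposited table CCL5 had log2 values of 7.04 and 7.58 in shT7#1, against 5.20 and 4.99 in shCntrl. CXCL10 had 5.69 and 5.77 in shT7#1, against 3.59 and 4.33 in shCntrl, and CX3CL1 had 7.99 and 7.79 in shT7#1, against 6.62 and 6.40 in shCntrl. All 3 genes had both shT7#1 values above both shCntrl values. The authors' deposited fold table lists CCL5 at 4.64-fold, CXCL10 at 3.40-fold and CX3CL1 at 2.61-fold. It lists CXCL11 at 1.22, CXCL12 at 1.01, CXCL16 at 0.95, CCL2 at 0.86 and CCL26 at 0.84. When these processed values were tested with limma under the same detection filter, CCL20 (adjusted p 0.0197) and CCL5 (0.0469) passed, while CX3CL1 (0.0511) and CXCL10 (0.0846) did not.

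The other mononuclear cell chemokines were mostly silent on these arrays, and the 3 that rose were CCL3L3, CCL3L1 and CCL4L1. Of 29 other ligands, 18 were above background on no array, 5 on only 1, and 6 were tested. These relatives of the macrophage inflammatory proteins had both shCntrl arrays at background, so each passed the filter only through shT7#1. Limma called 3 of the 6 tested ligands higher and 0 lower, against 2.95% and 3.55% of all tested genes. Of the 3 tested ligands that were above background in both groups, limma called 0, too few genes to set against those shares. CCL3L3 gave 224.1 and 208.8 units in shT7#1, against 102.4 and 116.9 units in shCntrl, which is at least 3.95-fold (limma adjusted p 0.00411). CCL3L1 was at least 2.76-fold higher (adjusted p 0.0126) at its brightest of 3 probes, all 3 of which were above background in shT7#1 only. CCL4L1 was at least 1.37-fold higher (limma adjusted p 0.0385). CCL3 itself lay at 0.83 ± 0.18 log2 units (SE) and missed the threshold, with an adjusted p of 0.0533. Copies of CCL3 and of CCL4 are nearly identical, so how their probes share signal is uncertain. The CCL4 probe and both CCL4L2 probes were above background on no array. CXCL9, the third CXCR3 ligand, was not above background on any array.

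Chemokine receptors were mostly not above background in these cells. Of 23 receptor genes, 21 had a probe, 12 were above background on no array and 8 were tested. Limma called 0 of the 8, against 6.5% of all tested genes. At an unadjusted p under 0.05 there were 2 receptors, both lower, against 1830 higher and 1987 lower of all 14731 genes. The median log2 difference over the 8 was -0.01, against -0.00030 over all tested genes. CCR3, which binds CCL5 and CCL26, CXCR3, CXCR6 and CX3CR1 were above background on no array. CCR1, which also binds CCL5, was above background on 1 array of each group and differed by -0.05 ± 0.22 log2 units (SE), not called. CXCR4, the receptor of CXCL12, was above background on all 4 arrays at 2 probes and differed by 0.15 ± 0.14 log2 units (SE), not called. ACKR3, a scavenger of CXCL12 and CXCL11, was lower by a log2 difference of -0.63 ± 0.16 (SE) and missed the threshold, with a limma adjusted p of 0.0791. For CCR6, the CCL20 receptor, the probes disagreed. A single CCR6 probe gave 12211 and 14258 units in shT7#1, against 12575 and 12423 units in shCntrl, while its other 2 probes were not above background on any array. No level of CCR6 can therefore be stated from these probes.

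**Figure D5:**
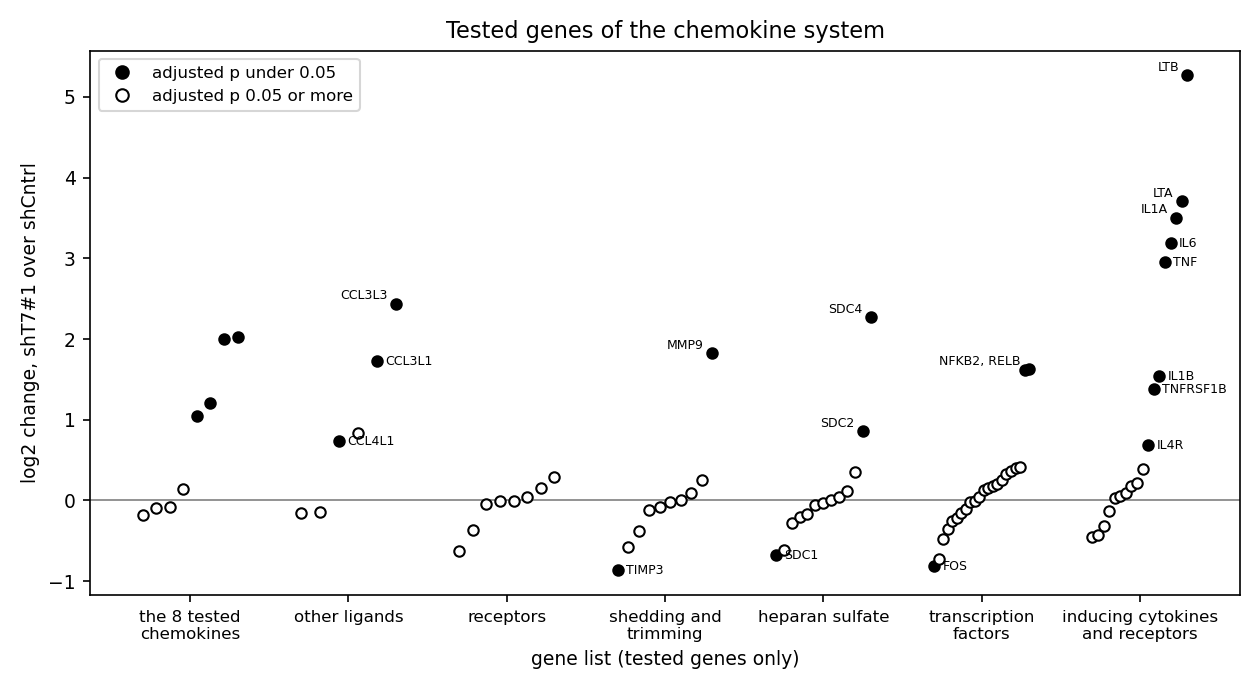
Log2 change (shT7#1 over shCntrl) of every tested gene of the 8 tested chemokines and 6 related gene lists. Filled points passed an adjusted p of 0.05 and are named, apart from the chemokines themselves. Filled points above 0 stand in every list except the receptors, where none is filled.

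Proteases that release or trim chemokines were read together with their inhibitors (TIMPs) and with the rhomboid partners of ADAM17. Of the 5 tested proteases, 1 was called higher (MMP9), and of the 5 tested TIMPs and rhomboids, 1 was called lower (TIMP3). MMP9 passed the detection filter only through the shT7#1 arrays, and 0 of the other 4 tested proteases were called. Shares over all tested genes were 2.95% higher and 3.55% lower. The median log2 difference over these 10 genes was -0.05, and -0.08 without MMP9. ADAM17 and ADAM10, the sheddases of CX3CL1 and CXCL16, lay at 0.25 ± 0.13 and -0.12 ± 0.14 log2 units (SE) and were not called. MMP9, which can degrade basement membrane and trim chemokines, was at least 2.41-fold higher in shT7#1, with both shCntrl arrays at background (limma adjusted p 0.00591). TIMP3, an inhibitor of ADAM17, fell by 0.87 ± 0.13 log2 units (SE, limma adjusted p 0.0254). DPP4, which trims CXCL10 and CCL5, was above background on 1 array.

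Heparan sulfate proteoglycans hold chemokines at the cell surface. Of the 5 tested proteoglycans, limma called 2 higher and 1 lower, and the 8 tested enzymes that build or modify the chains were not called. Among all tested genes, 2.95% were called higher and 3.55% lower. The median log2 difference over the 13 proteoglycan and enzyme genes was -0.04. SDC4, which encodes syndecan-4, rose by 2.27 ± 0.13 log2 units (SE), with levels of 10.53 ± 0.03 in shT7#1 and 8.26 ± 0.17 in shCntrl (SD, n = 2 each) and a limma adjusted p of 0.00218. SDC2 rose by 0.86 ± 0.13 log2 units (adjusted p 0.0219), and SDC1 fell by 0.68 ± 0.14 log2 units (adjusted p 0.0490). The syndecans thus moved in both directions. The heparan sulfate enzymes EXT1 and NDST1 lay at 0.01 ± 0.12 and -0.20 ± 0.15 log2 units (SE) and were not called.

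Transcription factors known at chemokine promoters were mostly not called. Of 22 tested, 2 rose, 1 fell and 19 were not called, against 2.95% of all tested genes called higher and 3.55% lower. The median log2 difference was 0.09, and 0.13 without FOS, which was at background in shT7#1. The factors that rose were the non-canonical NF-kB subunits NFKB2 and RELB, at 1.63 ± 0.12 and 1.62 ± 0.12 log2 units (SE, limma adjusted p 0.00389 for both). FOS fell, by at least 1.36-fold with both shT7#1 arrays at background (adjusted p 0.0214). IRF1 and IRF9, which act on CXCL10 and CXCL11, lay at 0.04 ± 0.11 and 0.20 ± 0.13 log2 units (SE) and were not called. STAT6, which acts on CCL26, lay at -0.25 ± 0.17 and was not called.

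Several cytokines known to induce chemokines rose. Among the 18 tested cytokines and cytokine receptors, limma called 8 higher and 0 lower, and of the rest 8 were above background on no array and 1 on a single array. Limma called 2.95% of all tested genes higher and 3.55% lower. At an unadjusted p under 0.05, 2 of these 18 genes were lower, against 1987 of all 14731 genes. LTB, LTA, IL1A, IL6, TNF and IL1B were among the 8. LTB rose by 5.27 ± 0.12 log2 units (SE, limma adjusted p 0.000239). LTA rose by 3.71 ± 0.23 (limma adjusted p 0.00282) and IL6 by 3.19 ± 0.12 log2 units (limma adjusted p 0.000654). For IL1A, TNF and IL1B both shCntrl arrays lay at background, so they passed the filter only through shT7#1. Without these 3 genes, 5 of the 15 others were called higher, and their median log2 difference was 0.18, against 0.30 over all 18. IL1A was at least 8.93-fold higher (adjusted p 0.000654), TNF at least 5.51-fold higher (limma adjusted p 0.00181) and IL1B at least 2.42-fold (adjusted p 0.0452). The other two were receptors, named after their values were seen, TNFRSF1B at 1.38 ± 0.11 and IL4R at 0.68 ± 0.12 log2 units (SE). The interferon genes IFNB1, IFNG, IFNL1, IFNL2 and IFNL3 were not above background on any array.

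Genes beside the chemokines on their chromosomes were read in the order of RefSeq (GRCh38.p14), with 2 protein-coding genes on each side. Of 32 neighbours that are not among the chemokines, 15 were tested, 14 of them without a call. The share called in either direction over all tested genes was 6.5%, so 1 call among 15 is near that share. The gene that rose was DAW1, beside CCL20, at 1.01 ± 0.13 log2 units (SE, adjusted p 0.0153), and it is named after its values were seen. CX3CL1 lies between the CC chemokine genes CCL22 and CCL17, both of which were above background on no array. RDM1, beside CCL5, lay at 0.81 ± 0.17 log2 units with an adjusted p of 0.0552. The tested neighbours of CXCL10 and CXCL11, NUP54 and SCARB2, lay at 0.18 ± 0.11 and -0.02 ± 0.11 log2 units (SE) and were not called.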

How the data were processed

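Per the labels, 2 arrays held shT7#1 cells and 2 held shCntrl cells. The deposited table gave a signal intensity and a detection p-value per probe and array; the submitters' processing notes name GenomeStudio 2011.1. Log2 values per gene symbol were deposited too, which per the file headers the authors made with RMA in ArrayStar, and their column medians were 3.02 to 3.03. A further deposited table gave group means on the log2 scale and a linear fold ratio.

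Intensities were corrected here by a normexp fit inferred from the detection p-values (offset 16), quantile normalised and log2 transformed with limma 3.58.1 in R 4.3.3. Probes needed a detection p under 0.05 on at least 2 arrays, and a gene was represented by its brightest such probe. Of the 47323 probes 20366 passed, and 14731 genes were tested with lmFit and eBayes, two-sided, group as the only term, p-values adjusted over all genes (Benjamini-Hochberg, threshold 0.05). The code of the fit was checked on simulated arrays with known changes and independent noise, which cannot show whether these arrays are independent. Of the chemokine probes, 9 of 15 passed. Errors are standard errors of the fit or SDs over 2 arrays, and only 4 arrays limit the precision. "At least N-fold" is a bound where a group was above background on no array, against the lowest normalised value above background. It holds for this background correction only, and an adjusted p beside it belongs to the fitted difference. Symbols were updated through the RefSeq table of GRCh38.p14 (17761 current, 3297 updated, 10357 kept, 11 turned into dates and left out). The labels number arrays 1 and 2 in each group without saying that a number marks a shared batch.

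The chemokines, the 11 other gene lists and the rule for naming genes (all chemokines, up to 6 called genes per list, and genes at background on which a sentence turns) were chosen with earlier results of these data known. Uncalled list genes with values, such as CCL3, CXCR4, ACKR3, ADAM17, ADAM10, EXT1, NDST1, STAT6, IRF1 and IRF9, and the neighbours of the chemokines fall outside that rule and were named for their roles or places after values were seen. Slides and scan batches are not given in the sources used here. Alternatives varied background correction, normalisation, filter, probe rule, test and arrays.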

Additional observations from a re-analysis of the deposited data

How the results depend on the processing

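CCL5 and CCL20 kept direction and call in all alternatives that gave a value except the authors' processed values with the authors' own minimum of 2.5, a setting added after seeing the data, where limma adjusted p-values were 0.175 and 0.0818. CCL20 has no value where detection on all 4 arrays was required. CX3CL1 and CXCL10 kept their direction throughout and lost the call in 6 of 14 alternatives each, the 4 that left out an array and both that used the authors' processed values. CCL2, CCL26, CXCL11 and CXCL16 were called in none, and leaving out an array turned the sign of each in at least 1 case. The number of chemokines called higher was 2 with any 1 array left out, 2 on the authors' processed values and 0 with their minimum, where 4 were higher at an unadjusted p under 0.05. Over all genes, 434 were higher and 523 lower. The counts were 1161 and 1262 without background correction, 962 and 1086 with an offset of 50, 699 and 818 with detection on all 4 arrays, and 1180 and 1305 with a trended robust fit. They were 114 and 102 on the authors' processed values, and 7 and 0 with their minimum, where 1854 were lower at an unadjusted p under 0.05. With 1 array left out they were 69 to 86 higher and 38 to 53 lower, from a fit with fewer samples, and otherwise the cause was not tested. The replicate block, with the array number as a term, gave 563 higher and 676 lower genes and the same 4 chemokines (adjusted p 0.00610 for CCL5, 0.00362 for CCL20, 0.0156 for CX3CL1 and 0.0238 for CXCL10). Same-numbered arrays deviated together at a correlation of 0.125, over 2 pairs, which does not show that they are paired. CCL7 and CXCL12 lay at background, so no size of change can be read for them.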
